A study of Homo sapiens with 4 samples.

Results

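The genes studied here are the 10 that encode the enzymes of serine synthesis (PHGDH, PSAT1 and PSPH), of the mitochondrial folate pathway (SHMT2, MTHFD2, MTHFD1L and ALDH1L2), of the cytosolic folate pathway (SHMT1 and MTHFD1) and of asparagine synthesis (ASNS). They were taken by name from a table of 59652 genes, and all 10 were found. The rule that takes them uses no measured value, although earlier results of these data were known when it was written. Their RNA was measured in Huh7 and PLC cells, a pair of established human hepatocellular carcinoma (HCC) lines labelled wild type, after 48 h at a low (5 mM) or a high (25 mM) glucose concentration. Both lines grew in DMEM without glucose of its own, to which fetal bovine serum, antibiotics and then the stated glucose were added, so that the concentration of glucose was the sole labelled difference within a line. Each line at each concentration gave 1 library, and no condition had a replicate.

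Serine is made from a glycolytic intermediate, 3-phosphoglycerate. PHGDH oxidizes it, PSAT1 transfers an amino group from glutamate, and PSPH removes the phosphate. Serine then gives a carbon unit to folate and becomes glycine, through SHMT2 in mitochondria or SHMT1 in the cytosol. In mitochondria MTHFD2 oxidizes the loaded folate, MTHFD1L releases the unit as formate, and ALDH1L2 can burn it to carbon dioxide with the formation of NADPH. In the cytosol MTHFD1, a single protein with 3 activities, takes up formate and supplies purine and thymidylate synthesis. ASNS makes asparagine from aspartate with the amide group of glutamine. Genes of serine synthesis, of the mitochondrial branch and ASNS are textbook targets of ATF4, a transcription factor made when amino acids run short or the endoplasmic reticulum is under stress.

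The 4 libraries were depleted of rRNA and held between 16049686 and 30279716 reads counted on genes, and the lowest and the highest total both belonged to PLC cells, at 25 mM and 5 mM. Levels are given as FPKM, the reads of a gene scaled by the length of its merged exons and by the counted reads of the library. The glucose ratio is the FPKM at 25 mM over that at 5 mM within a line, with 0.1 added to both, and is called lower under 0.67 and higher over 1.5 among genes that exceed 0.5 FPKM in 1 or both libraries of the line. The 95% interval beside a ratio is exact (Clopper-Pearson) and was calculated from the reads without the added 0.1. It reflects the counting of reads alone, so it sets 1 library against another and says nothing of cultures in general. A change shared by the lines was tested across all genes with edgeR's quasi-likelihood test, in which the lines stand in for replicates although they are not replicate cultures, with 1 residual degree of freedom. In RNA of whole cultures, fewer cells that express a gene and less RNA per cell cannot be told apart.

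Most of these genes were lower at high glucose, while the cytosolic enzymes were called lower in neither line and the mitochondrial SHMT2 in Huh7 cells alone. In Huh7 cells 8 of the 10 were called lower and 0 higher, beside 13.7% and 14.1% of all 21864 genes with a level. In PLC cells 7 were called lower and 1, SHMT1, was called higher, beside 17% and 26.2% of 21749 genes. The 7 genes lower in both lines were PHGDH, PSAT1, PSPH, MTHFD2, MTHFD1L, ALDH1L2 and ASNS, where 3.82% of the 18108 genes with a level in both lines were lower in both. The median log2 ratio of the 10 genes was -0.88 in Huh7 cells and -1.14 in PLC cells, beside 0.04 and 0.11 over all genes with a level. By edgeR 5 of the 10 had fallen at 25 mM and 0 had risen at an adjusted p-value under 0.05, beside 0.314% and 0.0646% of 23217 genes tested. An unadjusted p-value under 0.05 was reached by 8 of the 10 in this edgeR fit, SHMT1 on the higher side, and by 1979 of all genes tested, while DESeq2 and limma called none of the 10 higher. When the cell line was left out of the model, 0 of the 10 were called and 2 had an unadjusted p-value under 0.05.

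**Figure D1:**
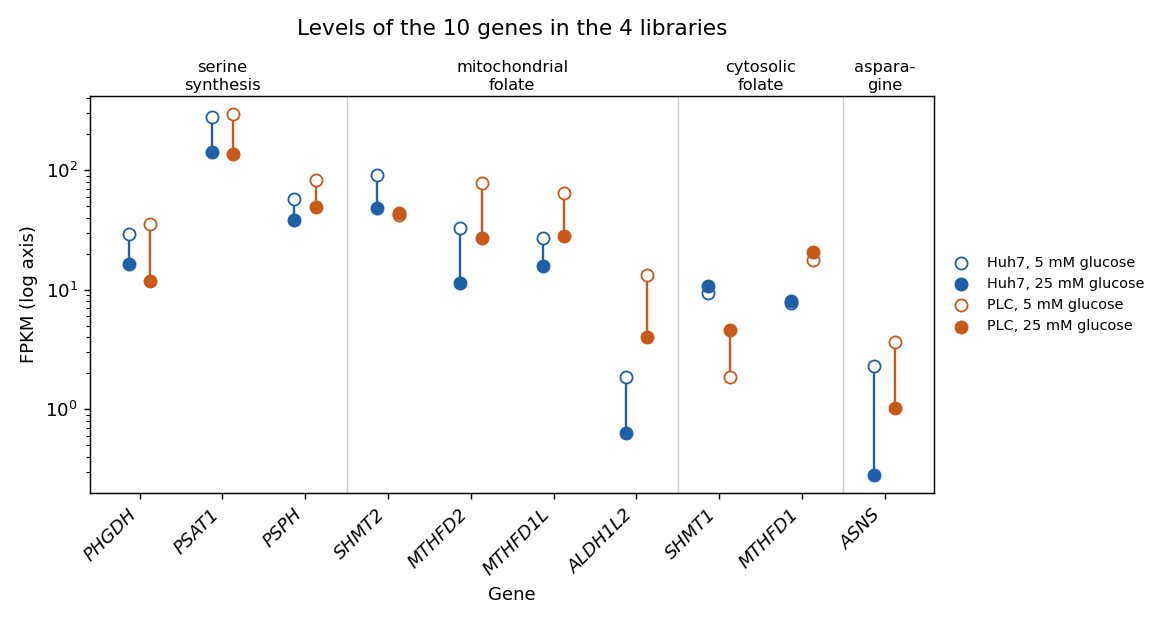
Level of each of the 10 genes in the 4 libraries, in FPKM on a log axis, with open circles for 5 mM and filled circles for 25 mM glucose, blue for Huh7 and orange for PLC cells. Lines join the 2 libraries of a cell line, and each circle is 1 library. The filled circle lies below the open one in both lines for 7 genes, and above it in both lines for SHMT1 and MTHFD1.

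PSAT1 had the highest level of the 10 in every library, from 137 to 292 FPKM, above more than 99.7% of all genes. At 5 mM in Huh7 cells it was followed by SHMT2 (91.4 FPKM), PSPH (57.4), MTHFD2 (33.1), PHGDH (29.5), MTHFD1L (27.0), SHMT1 (9.45), MTHFD1 (7.79), ASNS (2.29) and ALDH1L2 (1.86). At 5 mM in PLC cells the order was PSPH (82.7 FPKM), MTHFD2 (78.0), MTHFD1L (64.5), SHMT2 (41.9), PHGDH (35.3), MTHFD1 (17.6), ALDH1L2 (13.2), ASNS (3.64) and SHMT1 (1.87). With 1 library per condition no spread between cultures is known, and neighbours in this order cannot be separated. The order also depends on the exon length used. PHGDH has 9187 bases of merged exons but 1866 in its canonical transcript, by which its level at 5 mM would be 145 FPKM in Huh7 and 174 in PLC cells. The glucose ratio without the added 0.1 is free of this choice, because the length cancels within a gene.

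The start regions of the genes were searched for the letters TGATGNAA, the core that ATF4 and C/EBP factors are known to bind together, and CACGTG, the E-box of MYC and related factors, on both strands. RefSeq windows of GRCh38.p14, from 250 bases before to 50 bases after a start site, were at hand for 7 of the 10 genes, and not for PSPH, SHMT2 and ALDH1L2. TGATGNAA was found for 2 of the 7 genes, ASNS and MTHFD1L, and for 4.46% of all 27305 genes with a window. CACGTG was found for 2 of the 7, MTHFD1 and MTHFD1L, and for 8.77% of all genes. Of the genes with a match, ASNS and MTHFD1L were called lower in both lines, and MTHFD1 was past a threshold in neither. Every match is printed below with 9 bases on either side, on the strand of the gene, with the matching letters in capitals.
ASNS, chr7:97872460-97872485, minus strand: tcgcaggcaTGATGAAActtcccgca
MTHFD1L, chr6:150866348-150866373, plus strand: cgccggctcTGATGCAAtcgcgccgg
MTHFD1L, chr6:150866323-150866346, plus strand: gcccggctcCACGTGcgcagccgg
MTHFD1, chr14:64388329-64388352, plus strand: gtccctaagCACGTGggttgggtt
The ASNS match starts 68 bases before the RefSeq start site and lies within an exon of 2 of the gene's 17 transcripts in GENCODE release 44, and the TGATGNAA match of MTHFD1L lies within the exon of 1 of 12, which is coding there. The MTHFD1 match starts 15 bases before its start site and lies within an exon of 14 of the 34 transcripts of that gene. A match describes letters in a window and shows neither binding nor its absence. PHGDH, PSAT1 and MTHFD2, lower at 25 mM in both lines, and SHMT1, lower in neither, had neither set of letters in their windows.

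The 3 genes of serine synthesis were lower at high glucose in both lines, and edgeR called PHGDH and PSAT1. PHGDH (chr1:119648411-119744218, plus strand), the first enzyme and the entry from glycolysis, had 29.5 FPKM in the low-glucose and 16.5 in the high-glucose Huh7 library, and 35.3 and 11.9 FPKM in the corresponding PLC libraries. Its level at 5 mM was thus above that at 25 mM in every pairing of the 4 libraries. The share of all genes separated by glucose in this way was not counted, so the separation is not shown to be particular to any gene named here. The Huh7 ratio of PHGDH was 0.559 (95% interval 0.536 to 0.580) and the PLC ratio 0.340 (0.321 to 0.356), and the shared change was -1.28 on the log2 scale (SE, the standard error, 0.24, adjusted p = 0.0416 by edgeR).

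PSAT1 (chr9:78297125-78330093, plus strand), the aminotransferase, was the most abundant of the 10 genes and moved almost alike in the lines. Its Huh7 levels were 278 FPKM (13090 reads) at low and 143 FPKM (9475 reads) at high glucose, and its PLC levels were 292 FPKM (19494 reads) and 137 FPKM (4837 reads). Both low-glucose libraries stood above both high-glucose libraries, again without a count of all genes so separated. The ratio of PSAT1 was 0.514 (0.501 to 0.528) in Huh7 and 0.468 (0.454 to 0.483) in PLC cells, with a shared log2 change of -1.11 (SE 0.20, adjusted p = 0.0313 by edgeR).

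PSPH (chr7:56011051-56051604, minus strand), the phosphatase of the last step, had ratios nearer to 1. Its Huh7 levels were 57.4 and 38.2 FPKM and its PLC levels 82.7 and 49.4 FPKM, low glucose first. The libraries at 5 mM again stood above those at 25 mM, with the share of all genes so separated not counted. The ratio of PSPH in Huh7 cells was 0.665 (0.633 to 0.698), just under the threshold of 0.67 with an interval that crosses it, and 0.6702 and no longer called with 1 added in place of 0.1, while the PLC ratio was 0.598 (0.569 to 0.627). Its log2 change of -0.75 (SE 0.21, adjusted p = 0.192) did not pass the edgeR test. Summed over the 3 genes, the Huh7 level was 365 FPKM at low and 197 at high glucose, and the PLC level 410 and 198.

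**Figure D2:**
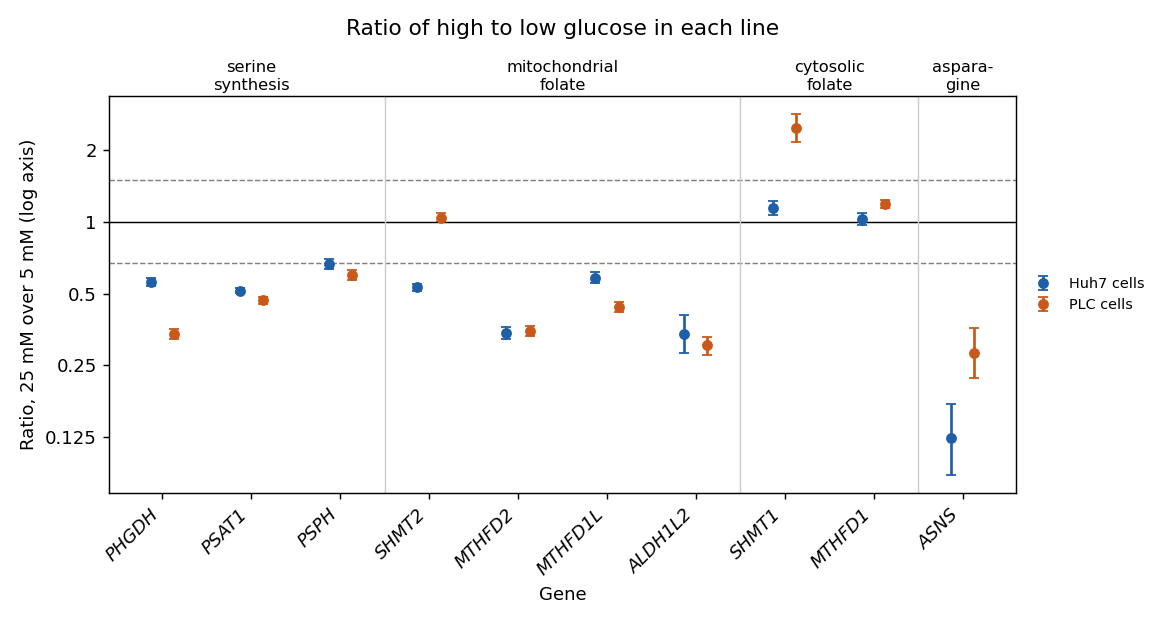
Ratio of the level at 25 mM to that at 5 mM glucose for each gene in Huh7 (blue) and PLC (orange) cells, on a log axis, without the added 0.1. Bars are exact 95% intervals of counting error from 1 library per condition, the solid line marks 1, and the dashed lines mark 0.67 and 1.5. SHMT2 lies at 0.530 in Huh7 and 1.04 in PLC cells, while MTHFD2 lies at 0.343 and 0.350.

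Of the 4 mitochondrial folate genes, MTHFD2, MTHFD1L and ALDH1L2 were lower at high glucose in both lines and SHMT2 in Huh7 cells alone, and edgeR called MTHFD2 and ALDH1L2. MTHFD2 (chr2:74198610-74217565, plus strand), the dehydrogenase and cyclohydrolase of the branch, had Huh7 levels of 33.1 FPKM (3416 reads) at low and 11.4 FPKM (1648 reads) at high glucose, and PLC levels of 78.0 FPKM (11383 reads) and 27.3 FPKM (2109 reads). The lines differed in level, and each stood lower at 25 mM by nearly the same factor. The ratio of MTHFD2 was 0.345 (0.323 to 0.364) in Huh7 and 0.350 (0.334 to 0.366) in PLC cells, and its shared log2 change was -1.61 (SE 0.21, adjusted p = 0.00487 by edgeR). Of its 4822 exon bases, 27.5% are also exon of SLC4A5 on the opposite strand, which had between 22 and 151 reads, and whether the counting was by strand is not given in the sources used here.

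MTHFD1L (chr6:150865549-151101887, plus strand), which makes formate from the mitochondrial folate, was at 27.0 and 15.7 FPKM in the Huh7 libraries and at 64.5 and 28.4 FPKM in the PLC libraries, low glucose first. Within each line the level at 25 mM was the lower of the pair. The ratio of MTHFD1L was 0.584 (0.551 to 0.615) in Huh7 and 0.441 (0.420 to 0.461) in PLC cells. Its log2 change was -1.06 (SE 0.22, adjusted p = 0.0692 by edgeR), which did not pass. Without a filter on low counts in edgeR, or with DESeq2, the adjusted p-value of MTHFD1L was 0.00165 or 0.00315.

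ALDH1L2 (chr12:105019784-105107643, minus strand), the mitochondrial formyltetrahydrofolate dehydrogenase, was among the least abundant of the 10 genes in Huh7 cells. Its 377 and 180 reads there stand for 1.86 and 0.630 FPKM at low and high glucose, and the 3790 and 609 reads of PLC cells for 13.2 and 4.0 FPKM. Every PLC library was above every Huh7 library, and each line had its lower level at 25 mM. The ratio of ALDH1L2 was 0.373 (0.282 to 0.406) in Huh7 and 0.308 (0.278 to 0.330) in PLC cells, with a shared log2 change of -1.73 (SE 0.25, adjusted p = 0.00960 by edgeR).

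SHMT2 (chr12:57229573-57234935, plus strand), which loads folate with the carbon unit of serine in mitochondria, differed between the lines. The Huh7 levels were 91.4 FPKM (8967 reads) at low and 48.4 FPKM (6691 reads) at high glucose. The PLC levels were 41.9 FPKM (5824 reads) and 43.5 FPKM (3208 reads). The Huh7 library at 5 mM stood apart, and the other 3 lay between 41.9 and 48.4 FPKM. The ratio of SHMT2 was 0.531 (0.514 to 0.547) in Huh7 and 1.04 (0.995 to 1.09) in PLC cells, where it was 0.956 with TMM scaling. Its log2 change of -0.51 (SE 0.24, adjusted p = 0.595 by edgeR) did not pass, and no test of the difference was possible with these 4 libraries.

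Neither cytosolic folate gene was called lower in either line. SHMT1 (chr17:18327860-18363563, minus strand), the cytosolic counterpart of SHMT2, was at 9.45 and 10.8 FPKM in the Huh7 libraries and at 1.87 and 4.60 FPKM in the PLC libraries, low glucose first. The PLC levels come from 412 reads at 5 mM and 538 at 25 mM, although the second library was the shallower. The Huh7 ratio of SHMT1 was 1.14 (1.07 to 1.22), and the PLC ratio of 2.39 (2.16 to 2.81) was called higher. The log2 change of SHMT1 was 0.65 (SE 0.28, adjusted p = 0.528 by edgeR) and did not pass.

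MTHFD1 (chr14:64388031-64463457, plus strand), the cytosolic enzyme with 3 activities, had the ratios nearest to 1 among the 10 genes when both lines are read together. Its Huh7 levels were 7.79 and 8.01 FPKM and its PLC levels 17.6 and 20.8 FPKM, low glucose first. The lines stood further apart in level than the glucose concentrations did within either line. The ratio of MTHFD1 was 1.03 (0.971 to 1.09) in Huh7 and 1.18 (1.14 to 1.23) in PLC cells, and its log2 change was 0.06 (SE 0.21, adjusted p = 0.985 by edgeR).

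Set against each other, the mitochondrial enzymes were lower at high glucose relative to the cytosolic ones in both lines. The median log2 ratio was -1.17 for the 4 mitochondrial and 0.11 for the 2 cytosolic genes in Huh7 cells, a difference of -1.28. In PLC cells the medians were -1.35 and 0.75, a difference of -2.10. Summed over the genes, the mitochondrial branch went from 153 FPKM at low to 76.2 at high glucose in Huh7 and from 198 to 103 FPKM in PLC cells, while the cytosolic branch had 17.2 and 18.8 FPKM in Huh7 and 19.5 and 25.4 FPKM in PLC cells. A median over 2 genes rests on both of them, and in PLC cells the sums give a log2 difference of -1.32 in place of -2.10. SHMT2 alone held 91.4 of the 153 FPKM of Huh7 cells at 5 mM. The sums also depend on exon length. By canonical transcripts SHMT1, MTHFD1 and SHMT2 had 27.2, 30.2 and 194 FPKM in that library, in place of 9.45, 7.79 and 91.4.

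The counterparts gave the same order pair by pair. In Huh7 cells SHMT2 was 9.67 times SHMT1 at low and 4.50 times SHMT1 at high glucose, and in PLC cells 22.4 and 9.45 times. It was therefore 0.466-fold (exact 95% interval 0.433 to 0.501) at high glucose in Huh7 and 0.422-fold (0.367 to 0.484) in PLC cells. In Huh7 cells the smaller quotient came with a lower SHMT2 and a ratio of SHMT1 near 1, and in PLC cells with a higher SHMT1 and a ratio of SHMT2 near 1. MTHFD2 to MTHFD1 gave Huh7 quotients of 4.25 and 1.42 and PLC quotients of 4.43 and 1.31, a change of 0.334-fold (0.307 to 0.362) and 0.296-fold (0.278 to 0.314). For MTHFD1L to MTHFD1 the Huh7 quotients were 3.47 and 1.97 and the PLC quotients 3.67 and 1.36, a change of 0.567-fold (0.523 to 0.613) and 0.372-fold (0.350 to 0.395). The intervals cover counting error only. The size of a quotient depends on exon length, since by canonical transcripts MTHFD2 to MTHFD1 was 1.20 and 0.401 in Huh7 and 1.25 and 0.371 in PLC cells, whereas the change with glucose does not.

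**Figure D3:**
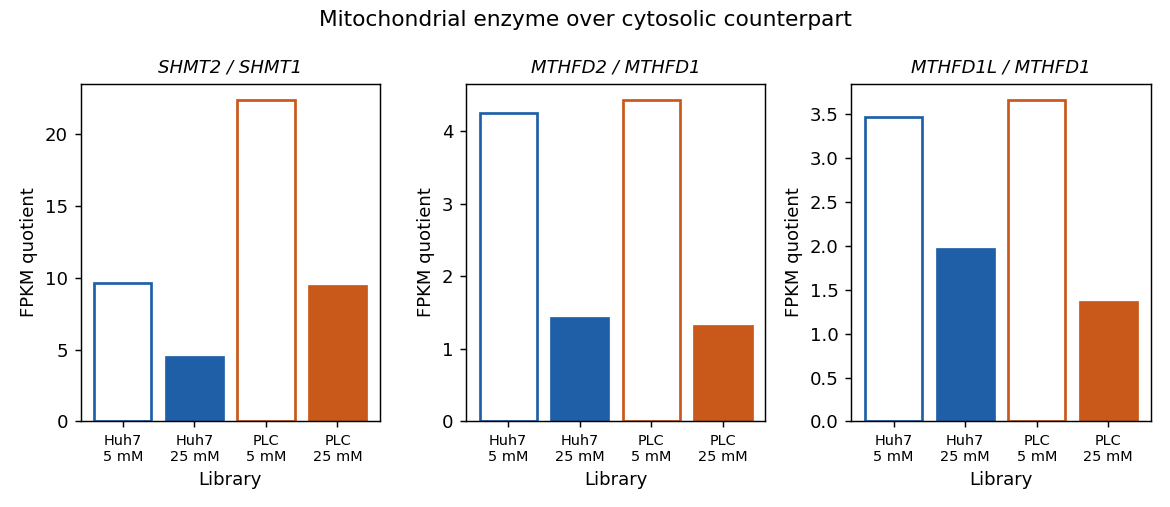
FPKM of a mitochondrial enzyme divided by that of its cytosolic counterpart in each of the 4 libraries, with open bars for 5 mM and filled bars for 25 mM glucose, blue for Huh7 and orange for PLC cells. Each bar is 1 library and the bars start at 0. The filled bar is the lower one in both lines for all 3 pairs, and the PLC quotient of SHMT2 to SHMT1 falls from 22.4 to 9.45.

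ASNS (chr7:97851677-97872542, minus strand), the asparagine synthetase, had the lowest ratio of the 10 genes in both lines with 0.1 or nothing added, and the fewest reads in 3 of the 4 libraries. With 1 added in place of 0.1 it was the lowest in neither, at 0.390 in Huh7 cells, where MTHFD2 had 0.362, and at 0.437 in PLC cells, where ALDH1L2, PHGDH and MTHFD2 had 0.352, 0.356 and 0.358. Its 240 and 42 reads in Huh7 cells stand for 2.29 and 0.285 FPKM at low and high glucose, and its 540 and 81 reads in PLC cells for 3.64 and 1.03 FPKM. Both low-glucose libraries stood above both high-glucose libraries, with the share of all genes so separated not counted. The Huh7 ratio of ASNS was 0.161, or 0.124 (0.0874 to 0.173) without the added 0.1, and the PLC ratio was 0.302 (0.221 to 0.358), an interval that holds the 0.308 of ALDH1L2. The shared log2 change of ASNS was -2.47 (SE 0.38, adjusted p = 0.0156 by edgeR).

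The level of ASNS is uncertain, because its exons are shared in large part with another gene of the table. AC079781.5 (chr7:97851688-97972985), on the same strand, covers 2415 of the 4896 exon bases of ASNS, and 99.5% of the 2355 windows of 31 bases in the canonical ASNS transcript also occur in it. How reads that lie in both genes were counted is not given in the sources used here. Counted on AC079781.5 itself were 8 and 6 reads of the Huh7 libraries and 32 and 10 of the PLC libraries. ASNSP1 (chr8:46579213-46638886, minus strand), a pseudogene of ASNS, had more reads than ASNS in every library, namely 435 and 72 for Huh7 and 835 and 107 for PLC cells. It holds 6.62% of the same windows, so reads of ASNS and ASNSP1 can be exchanged in part. The ratio of ASNSP1 was 0.130 in Huh7 and 0.249 in PLC cells, with a log2 change of -2.64 (adjusted p = 0.00487 by edgeR). When the reads of ASNS, AC079781.5 and ASNSP1 were added up, a setting chosen after the values were seen, the sums were 683 and 120 for Huh7 and 1407 and 198 for PLC cells. The ratios of this sum were 0.125 (0.102 to 0.152) for Huh7 and 0.265 (0.228 to 0.308) for PLC cells, and edgeR gave it a log2 change of -2.53 (adjusted p = 0.00358).

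Copies touch the other genes less. Of the 18 numbered pseudogenes of the 10 genes in the table, 11 had reads, and ASNSP1 and PSPHP1 passed 100 reads in a library. PSPHP1, the other of these, had 346 and 417 Huh7 reads and 573 and 262 PLC reads, with ratios of 0.857 and 0.863. Of the 31-base windows in the canonical transcript, 0% of PHGDH, 1.55% of MTHFD1L, 3.48% of SHMT2 and 3.87% of ALDH1L2 also occur in another gene. The shares were 12.7% for SHMT1, 15.5% for PSAT1, 19.4% for PSPH, 26.3% for MTHFD1 and 45.4% for MTHFD2, of which SLC4A5 holds most.

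Between the lines, MTHFD1, MTHFD2, MTHFD1L, ALDH1L2 and ASNS were higher in PLC cells and both SHMT genes in Huh7 cells. In the same edgeR fit, 5 of the 10 genes were higher in PLC cells and 2 in Huh7 cells at an adjusted p-value under 0.05, beside 21.1% and 21.9% of all genes tested. The count for Huh7 cells is near the share of all genes. With glucose left out of the model 3 of the 10 were called, and DESeq2 called 5 and limma 7. The share of all genes called was not counted for these other fits. ALDH1L2 had a log2 difference, PLC minus Huh7, of 2.75 (SE 0.26, adjusted p = 1.96e-06). MTHFD1 followed at 1.28, MTHFD2 at 1.25, ASNS at 1.20 and MTHFD1L at 1.06, with adjusted p-values between 0.000307 and 0.0180 by edgeR. For SHMT1 the difference was -1.77 (SE 0.29, adjusted p = 0.000255 by edgeR) and for SHMT2 -0.63 (0.24, adjusted p = 0.0467). The 2 libraries of PLC cells did not overlap those of Huh7 cells in FPKM for ALDH1L2, MTHFD1, MTHFD1L, SHMT1 and SHMT2, and overlapped for MTHFD2 and ASNS. The share of all genes without such an overlap was not counted, so its absence is not shown to be particular to these genes. The serine synthesis genes did not pass, with a log2 difference of -0.09 (SE 0.23) for PHGDH, 0.01 (0.19) for PSAT1 and 0.45 (0.21) for PSPH, and adjusted p-values of 0.777, 0.974 and 0.103 by edgeR.

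The size of the glucose ratio also differed between the lines by more than counting error for all but MTHFD2 and ALDH1L2. As the PLC ratio over the Huh7 ratio, without the added 0.1, it was 0.607 (exact 95% interval 0.569 to 0.647) for PHGDH and 0.756 (0.704 to 0.812) for MTHFD1L, whose decrease was thus larger in PLC cells. SHMT2 stood at 1.96 (1.86 to 2.07), SHMT1 at 2.16 (1.87 to 2.51) and ASNS at 2.28 (1.5 to 3.5). ASNS was thus less reduced in PLC than in Huh7 cells, by more than counting error. The interval included 1 for MTHFD2, at 1.02 (0.946 to 1.10), and for ALDH1L2, at 0.894 (0.731 to 1.10). Nearer to 1, with intervals that exclude it, were PSAT1 at 0.910 (0.873 to 0.949), PSPH at 0.899 (0.839 to 0.963) and MTHFD1 at 1.15 (1.07 to 1.23). With 4 libraries no residual degree of freedom is left for an interaction, so these differences have no test beyond their counting intervals. Such intervals narrow as reads increase. The share of all genes that differ by more than counting error was not counted, so the differences are not shown to be particular to these genes.

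Other genes of one-carbon and amino acid metabolism were read from lists that share the pathway. Of 12 further genes of mitochondrial folate transport and use and of glycine cleavage, 0 were called by edgeR, DESeq2 or limma, 1 (SFXN2) had an unadjusted edgeR p-value under 0.05, and 0 were lower in either line by ratio, with a median log2 ratio of 0.05 in Huh7 and 0.38 in PLC cells. In PLC cells 3 of them were higher, namely SFXN2, MTFMT and DMGDH, which are named after their values were seen, out of 9 with a level and beside the 26.2% of all genes called higher there. MTHFD2L, the paralogue of MTHFD2, had Huh7 levels of 2.65 and 1.95 FPKM and PLC levels of 2.13 and 2.02 FPKM, with ratios of 0.746 and 0.949, neither past the threshold. ALDH1L1, the cytosolic paralogue of ALDH1L2, was at or below 0.0341 FPKM in every library. Of 13 other cytosolic folate genes 0 of the 11 tested were called by any of the 3 tools and 3 had an unadjusted edgeR p-value under 0.05. TYMS, the thymidylate synthase, was also higher in both lines by ratio (1.57 and 2.41, adjusted p = 0.247).

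Among 11 genes of the methionine cycle and transsulfuration, CTH was called by edgeR, DESeq2 and limma and no other gene by any of them. By ratio CTH was also lower in both lines, while in PLC cells alone MAT1A (0.548) and CBS (0.560) were called lower and MTR (1.58) higher, 3 genes named after their values were seen. CTH, the cystathionine lyase that makes cysteine from carbons of serine, had Huh7 levels of 22.0 and 9.27 FPKM and PLC levels of 43.7 and 11.0 FPKM. Both libraries at 5 mM stood above both at 25 mM, with the share of all genes so separated not counted. The ratio of CTH was 0.423 in Huh7 and 0.255 in PLC cells, with a log2 change of -1.70 (SE 0.27, adjusted p = 0.0178 by edgeR). The lists of serine and glycine use, of asparagine, aspartate and glutamine, and of proline synthesis had 10, 10 and 5 genes tested, of which 0 were called by any of the 3 tools and 0 were past the ratio threshold the same way in both lines. An unadjusted edgeR p-value under 0.05 was reached by 0, 3 and 1 of them. Their median log2 fold changes in edgeR were 0.04, -0.38 and 0.19, beside -0.01 over all genes tested and -1.08 over the 10 genes.

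Regulators known to act on these genes were lower at high glucose as well, while the kinases upstream of ATF4 were not. Of 13 regulators, edgeR called 4, all fallen at 25 mM, and 7 were lower in both lines by ratio, beside 0.314% and 3.82% of all genes. All 7 had an unadjusted edgeR p-value under 0.05, and DESeq2 called 6 of them, ATF4 and MYC included. Over all 23217 genes tested, 1979 had such an unadjusted p-value in edgeR and 194 were called by DESeq2. ATF4 had Huh7 levels of 144 and 89.1 FPKM and PLC levels of 213 and 119 FPKM, with ratios of 0.618 and 0.560 and an adjusted p-value of 0.102. TRIB3, a pseudokinase made under ATF4, had Huh7 levels of 122 and 23.2 FPKM and PLC levels of 87.7 and 25.6 FPKM, with a log2 change of -2.17 (SE 0.23, adjusted p = 0.00126 by edgeR). ATF3, a stress-induced factor, had ratios of 0.252 and 0.0777, and the C/EBP factors CEBPB and CEBPG had 0.454 and 0.335, and 0.567 and 0.352, with adjusted p-values of 0.00326, 0.0190 and 0.0460 by edgeR. DDIT3 (0.365 and 0.534) and MYC (0.633 and 0.546) were past the ratio threshold in both lines with adjusted p-values of 0.111 and 0.144. The kinases EIF2AK1, EIF2AK2, EIF2AK3 and EIF2AK4, which set off the translation of ATF4, had ratios between 0.728 and 1.41, and neither they nor NFE2L2 were called. ATF4 activity is set largely by translation, which RNA levels do not show.

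**Figure D4:**
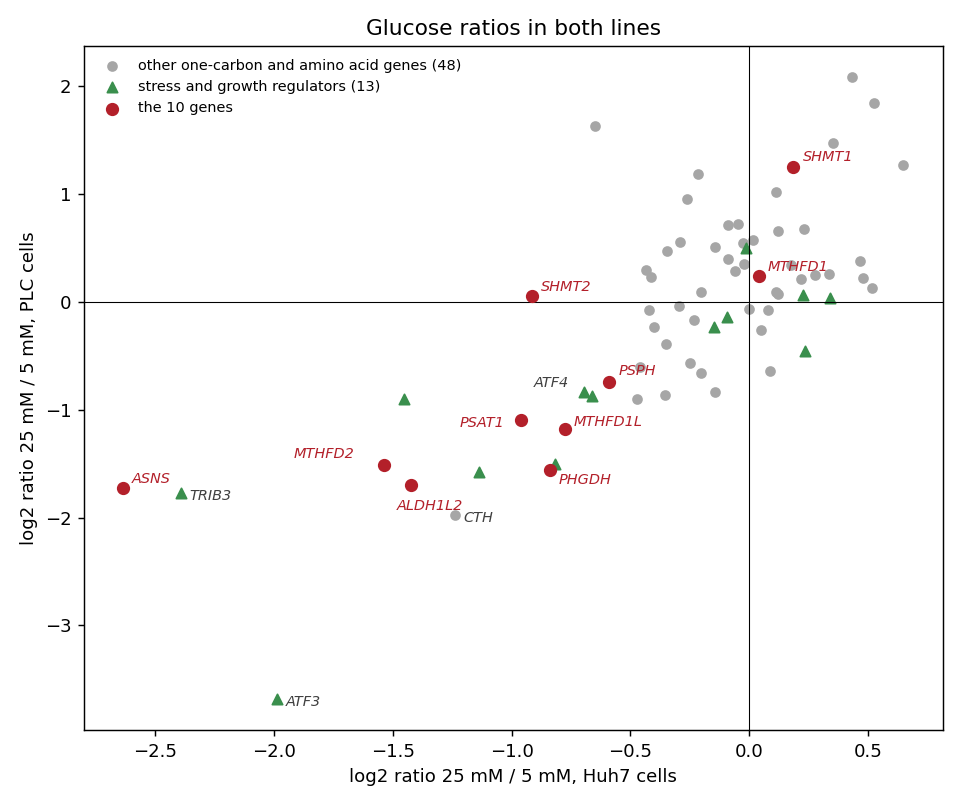
Log2 ratio of 25 mM to 5 mM glucose in PLC cells against that in Huh7 cells, with 0.1 added to both levels, for the 10 genes (red circles), 48 other one-carbon and amino acid genes (grey circles) and 13 regulators (green triangles) with FPKM over 0.5 in a library of each line. Each point rests on 1 library per condition. ASNS, MTHFD2, ALDH1L2, PHGDH, MTHFD1L, PSAT1 and PSPH lie in the lower left with CTH, TRIB3, ATF3 and ATF4, SHMT2 lies near 0 on the PLC axis, and SHMT1 and MTHFD1 lie above 0 on both.

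The label of both lines was read against 9 hepatocyte markers, whose summed level was 5219 and 5420 FPKM in the Huh7 and 762 and 1647 FPKM in the PLC libraries, low glucose first. AFP alone held 306 and 1011 FPKM of the PLC sums. HNF4A was between 29.0 and 38.5 FPKM in all libraries, while TTR was at or below 0.0607 FPKM in PLC cells and between 39.5 and 39.7 in Huh7 cells. In PLC cells 4 of the 8 markers with a level were called higher at 25 mM, and in Huh7 cells 2 of 9. APOA1 was called in both, with ratios of 1.52 in Huh7 and 3.46 in PLC cells. Of all genes with a level, 26.2% in PLC and 14.1% in Huh7 cells were called higher. By edgeR, DESeq2 or limma 0 of the 9 markers were called, with 4 at an unadjusted edgeR p-value under 0.05 and a median log2 change of 0.40 in edgeR. Of 8 markers of other cells the sum stayed between 0.886 and 2.95 FPKM, and PTPRC, CD68 and VWF were at or below 0.0576 FPKM. PECAM1 made up most of the Huh7 sum, at 2.37 and 2.55 FPKM, and COL3A1, at 0.6695 and 1.3 FPKM in PLC cells, was called higher there (ratio 1.82). The part of the higher marker sum at 25 mM in the PLC ratios above, SHMT1 included, was not tested.

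The protein-coding genes with the glucose pattern most like the mean of the 10 genes were looked up among 9109 with at least 100 reads in every library, by distance of log2 levels centred within each line over the 4 libraries. CARS1, the cysteinyl-tRNA synthetase, was nearest with ratios of 0.525 in Huh7 and 0.577 in PLC cells, followed by ERN1 (0.511 and 0.594), SHANK3 (0.537 and 0.560), CXCL8 (0.542 and 0.567) and TMC7 (0.525 and 0.545). Nearest to ASNS was TRIB3 (0.190 and 0.293), then UAP1L1 (0.172 and 0.367), SLC7A11 (0.201 and 0.357), ADM2 (0.181 and 0.396) and SESN2 (0.218 and 0.273). SLC7A11 is the cystine transporter and SESN2 a stress-induced inhibitor of growth signalling. The distances from the mean of the 10 genes ran from 0.0114 to 0.0569 and those from ASNS from 0.174 to 0.325 on the log2 scale. A likeness over 4 libraries is a likeness of 2 ratios and describes these libraries only.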

How the data were processed

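RNA was extracted with TRIzol, depleted of rRNA and made into directional libraries. The submitters' processing notes name HISAT2, featureCounts and hg38, and versions, annotation release and use of strand are not given in the sources used here. The values the authors deposited are raw read counts per gene, with no normalization, in a table of 59657 data lines, of which 5 belong to a broken entry for ANK2 and were left out. Libraries held 21376239 and 30085303 (Huh7 cells, 5 mM and 25 mM) and 30279716 and 16049686 reads (PLC cells), and a floor of 3 reads stands for 0.0991 to 0.187 CPM.

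FPKM was calculated from counts, the length in the table and library totals, and the cut-offs on FPKM and fold change follow the study's methods. Shared glucose changes and line differences came from 1 edgeR 4.0.16 quasi-likelihood fit (filterByExpr, TMM, line and glucose as terms, Benjamini-Hochberg adjustment over all genes tested) in R 4.3.3. Quotients and ratios of ratios have exact conditional 95% intervals (scipy 1.17.1). Genes were matched by symbol to GENCODE release 44, 38133 in all, for classes, transcripts and shared sequence. Without the added 0.1, TMM moves every log2 ratio by -0.04 in Huh7 and -0.12 in PLC cells, and with it less for low levels.

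The genes and lists were chosen with earlier results of these data known. Named genes are the 10 enzymes, listed genes that edgeR called or that passed the ratio cut-off the same way in both lines, MTHFD2L, ALDH1L1, ATF4, overlapping genes and numbered pseudogenes, and the 5 nearest genes by pattern. Other listed genes and markers are named after their values were seen. Alternatives were other pseudocounts, filters, ratio cut-offs and size factors, DESeq2 1.42.0, limma 3.58.1, fits without a block, canonical transcript length, and ASNS summed with the genes that share its sequence. The edgeR script was tested on simulated data. Some listed genes are not reported here.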

Additional observations from a re-analysis of the deposited data

Results flagged for a closer look

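SHMT2 had a ratio of 25 mM to 5 mM glucose of 0.531 in Huh7 cells and of 1.04 in PLC cells, which puts the libraries of the lines on opposite sides of 1. It was singled out because its ratio lay under 1 in Huh7 cells and over 1 in PLC cells, with 1 library pair per line. The difference was not tested, since 1 library per condition leaves no residual degree of freedom. In PLC cells the interval of 0.995 to 1.09 includes 1, and the ratio was 0.956 with TMM scaling and 0.961 with DESeq2 size factors, on the same side as in Huh7 cells.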

How the results depend on the processing

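No ratio or fold change of the 10 genes that had been called changed direction under the alternatives run. Of 82 glucose ratios under other pseudocounts and scalings and the ASNS sum, 80 stayed on their side of 1, and the other 2 were SHMT2 in PLC cells with TMM (0.956) and DESeq2 (0.961) scaling. A pseudocount of 1 moved the Huh7 ratios of ASNS from 0.161 to 0.390 and of ALDH1L2 from 0.373 to 0.570, and ended the call of PSPH in Huh7 cells (0.6702), which left 7 genes lower there and 6 in both lines. FPKM over 0.5 in both libraries also left 7 and 6, without ASNS in Huh7 cells. When the cut-off was 0.5 in place of 0.67, Huh7 cells kept 3 of the 10 genes as lower and PLC cells kept 6, with 3 shared. How many of all genes fall under 0.5 was not counted, so these counts have no background beside them. Over all genes edgeR called 88, and 526 without a filter, 194 were called by DESeq2 and 0 without the cell line as a block, where 52 had an unadjusted p-value under 0.05. Among the 10 genes 5 to 7 were called in the fits with the block and 0 without it. DESeq2 called PSPH as well (log2 fold change -0.74, adjusted p = 0.0395). The line difference was called for 7 genes, for 3 without glucose in the model and for 5 by DESeq2, with the share of all genes not counted for the alternatives. The log2 difference between mitochondrial and cytosolic genes, -1.28 in Huh7 and -2.10 in PLC cells, was -1.13 and -1.32 from summed FPKM, -1.03 and -1.93 without ALDH1L2, and -0.96 and -1.92 with a pseudocount of 1, and the cause was not tested. By canonical transcript length 36 of 40 levels moved. No paired analysis was possible because no condition has replicate numbers to pair, and the cell line is the block of the edgeR fit. Leaving out a library was not run, since it would leave a condition empty. Depth limits ASNS most, with 42 reads in Huh7 cells at 25 mM.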

Other observations

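GATM, which makes the creatine precursor from glycine, had ratios on opposite sides in the lines, at 0.637 in Huh7 and 3.10 in PLC cells, with levels of 18.1 and 11.5 FPKM and of 0.171 and 0.740 FPKM. It was chosen after its values were seen, and the difference was not tested.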
